A study of Mus musculus with 25 samples.

Results

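Sets of 7 and 5 arrays from a study of mouse mammary tissue were set against each other: the 7 had high expression of squamous (epidermis-type) genes and are called squamous-high, and the 5 were rich in fat-cell RNA and are called fat-rich. Together they make 12 of the 25 arrays of the series, and the other 13 arrays, all titled as tumors, are given as a range for orientation. The study hybridised RNA from mammary tumors and reference glands to single-colour Affymetrix whole-transcript arrays. By title it holds 10 tumors of K8-creERT2/PIK3CA H1047R mice, 10 tumors of Lgr5-creERT2/PIK3CA H1047R mice, 2 glands of K8-creERT2 control mice and 3 glands of Lgr5-creERT2 control mice. The labels of the control mice give the Cre transgene and no PIK3CA H1047R allele. All labels carry the same treatment text, tamoxifen at 7 to 8 weeks of age, which switches on the Cre recombinase. In the tumor lines this turns on a mutant catalytic subunit of PI3-kinase in cells that express keratin 8, a keratin of luminal epithelium, or Lgr5, a receptor that strengthens Wnt signalling. Both lines are of mixed background, FVB/CD1 for K8 and FVB/C57/BL6 for Lgr5.

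The arrays were chosen by measured values, the log2 levels of Sprr1b, S100a8, Alb and Adipoq, and not by their titles. The squamous-high set holds all 5 gland-titled arrays (Lgr5 glands 1, 2 and 3 and K8 glands 1 and 2) together with K8 tumor 9 and Lgr5 tumor 10. The fat-rich set holds Lgr5 tumors 2, 6, 7, 8 and 9. A normal mammary gland is a tree of epithelial ducts inside a pad of fat, yet the 5 gland-titled arrays were low in fat-cell genes and high in squamous and cell cycle genes, while 5 tumor-titled arrays were rich in fat-cell genes. The titles of these arrays are therefore in doubt, and arrays are called by title below only as names. Because measured values chose the sets, each difference between them is a description without a p-value. The labels number their sample codes 14 to 18 for the fat-rich arrays and 2 and 20 to 25 for the squamous-high arrays. What the codes mark is not stated. The labels do not say whether arrays came from separate animals.

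A squamous epithelium such as epidermis is built in layers. Basal cells attach to a basement membrane through keratins 5 and 14 and hemidesmosomes, and cells that leave this layer make other keratins and then a cornified envelope, a protein shell cross-linked by transglutaminases from small proline-rich proteins, involucrin and related precursors. Mammary epithelium has a luminal layer, which can make milk, and a contractile myoepithelial layer, and does not normally cornify. White fat cells store triglyceride behind a coat of perilipin and secrete hormones such as leptin and adiponectin.

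The 4 marker genes of the rule, on the log2 expression scale, were as follows. Sprr1b, a small proline-rich cornified envelope precursor, was at 8.43 to 10.23 in the squamous-high arrays with a median of 10.06, and at 5.73, 5.69, 5.91, 5.83 and 5.72 in Lgr5 tumors 2, 6, 7, 8 and 9. S100a8, a calcium-binding protein of neutrophils and of stressed keratinocytes, was at 8.54 to 10.98 in the squamous-high arrays and at most 6.08 in the fat-rich arrays. Just outside the squamous-high set the highest values were 6.28 for Sprr1b, in Lgr5 tumor 4, and 6.65 for S100a8, in Lgr5 tumor 5. Alb, serum albumin, was at 10.30, 9.92, 10.15, 10.22 and 10.26 in the 5 fat-rich arrays and at most 5.89 in all others, so the threshold of 8 lay in an empty interval. Adipoq, the fat-cell hormone adiponectin, was at 12.86 to 12.95 in the fat-rich arrays, and the next value was 11.76 in K8 tumor 7. Among the squamous-high arrays Adipoq spread from 6.61 in Lgr5 gland 2 to 10.11 in Lgr5 gland 3.

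**Figure D1:**
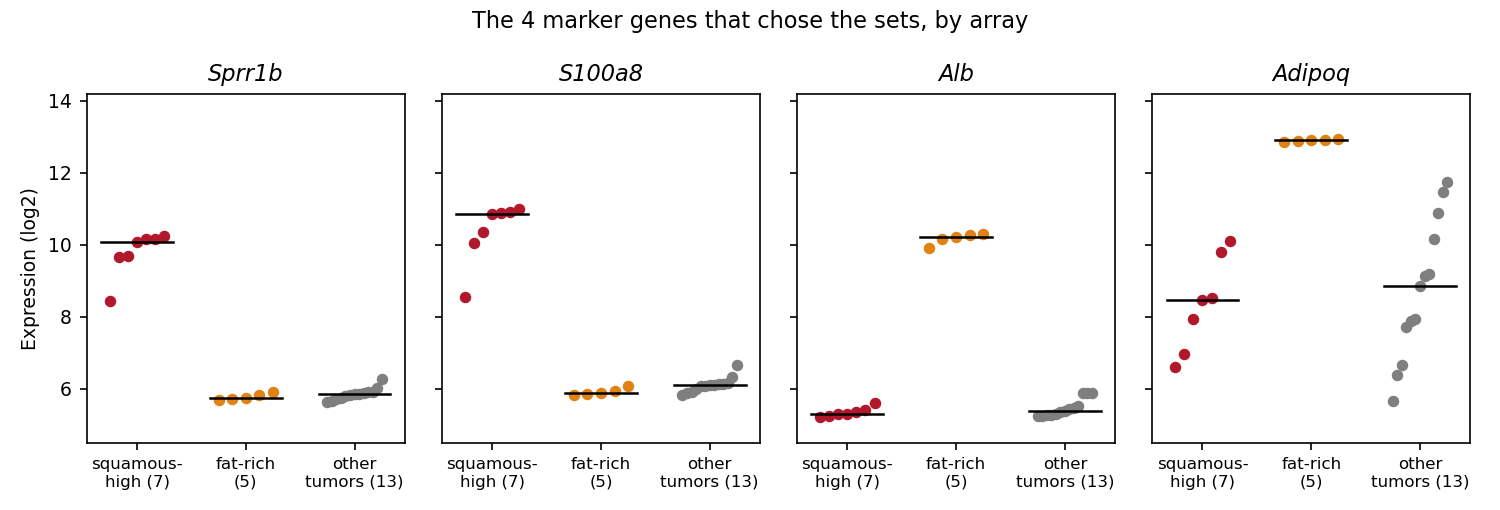
Expression (log2) of the 4 marker genes in each array of the squamous-high set (7), the fat-rich set (5) and the other tumors (13); points are arrays and lines are medians. Sprr1b and S100a8 are above 8 only in the squamous-high arrays and Alb only in the fat-rich arrays, while Adipoq runs over a continuous range below the fat-rich arrays.

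The promoters of 3 genes that stand for the main differences are printed from RefSeq on GRCm38.p6, each from 250 bases before to 50 bases after the annotated start: Sprr1b for the cornified envelope (chr3:92438730-92439029, minus strand), cyclin B2 (Ccnb2) for the cell cycle (chr9:70421505-70421804, minus strand) and Adipoq for fat cells (chr16:23146286-23146585, plus strand). Capitals mark matches to TGANTCA (an AP-1-like pattern), CCAAT and TATAAA in Sprr1b, to CCAAT and TTTGAA (the CHR element of cell cycle genes) in Ccnb2, and to CCAAT in Adipoq, on either strand, so that ATTGG is CCAAT on the other strand. The pattern TGANTCA allows any middle base and is looser than the AP-1 consensus, which the match marked in Sprr1b does not meet. The marked matches do not overlap.
Sprr1b: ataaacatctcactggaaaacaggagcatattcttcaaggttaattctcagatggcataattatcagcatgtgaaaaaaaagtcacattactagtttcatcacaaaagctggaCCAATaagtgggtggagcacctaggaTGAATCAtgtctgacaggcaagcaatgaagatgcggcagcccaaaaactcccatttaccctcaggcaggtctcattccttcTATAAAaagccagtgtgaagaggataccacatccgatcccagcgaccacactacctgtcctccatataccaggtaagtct
Ccnb2: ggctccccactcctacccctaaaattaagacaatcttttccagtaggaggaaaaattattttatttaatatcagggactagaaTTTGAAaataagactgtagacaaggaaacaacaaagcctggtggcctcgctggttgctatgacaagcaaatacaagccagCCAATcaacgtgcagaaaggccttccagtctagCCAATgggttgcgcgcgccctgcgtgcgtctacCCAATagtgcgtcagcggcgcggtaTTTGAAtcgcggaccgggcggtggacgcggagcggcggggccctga
Adipoq: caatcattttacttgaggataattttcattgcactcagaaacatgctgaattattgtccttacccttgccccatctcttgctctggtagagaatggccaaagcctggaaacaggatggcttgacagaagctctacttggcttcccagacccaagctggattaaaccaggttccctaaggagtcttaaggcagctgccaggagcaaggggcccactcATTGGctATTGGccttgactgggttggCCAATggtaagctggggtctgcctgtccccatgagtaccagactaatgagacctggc

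Sprr1b held 1 match to each of its 3 motifs, Ccnb2 held 3 matches to CCAAT and 2 to TTTGAA, and Adipoq held 3 matches to CCAAT. Of the 32851 promoter windows in the table, 7.81% held TGANTCA, 37.4% CCAAT, 17.9% TTTGAA and 13.6% TATAAA on either strand. Among 21 windows of 18 matched genes of the cornified envelope and squamous list, 9 held TGANTCA and 10 held TATAAA. Other lists held them too, with TGANTCA in 5 and TATAAA in 7 of 12 windows of matrix remodelling genes, and TGANTCA in 5 and TATAAA in 1 of 17 windows of luminal keratin and junction genes. Among 27 windows of 26 matched cell cycle genes, 22 held CCAAT, 12 held TTTGAA, and 0 held TGANTCA or TATAAA. Of 19 windows of 13 matched adipocyte genes, 5 held CCAAT and 1 held TGANTCA. A match is a description of these letters and not a binding site.

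Over 19937 genes, a gene was counted as apart when every array of one set lay above every array of the other and its set medians were 1 or more log2 units apart. By that rule 1082 genes were higher in the squamous-high arrays (5.43% of all genes) and 1153 were lower (5.78%). The choice of the sets used these same arrays, so nothing is read from these counts, nor from members' counts against them. The median difference over all genes was 0.01, with the 5th percentile at -1.19 and the 95th at 1.17. Among the genes apart, 41 of the higher and 48 of the lower had medians that differed by at least 4. With each array centred on its median the counts were 973 higher and 1258 lower. For most genes apart, the median of the other 13 tumors lay nearer to the squamous-high median, in 684 of the 1082 higher and 897 of the 1153 lower genes. Across genes, which are not independent replicates, pairs of squamous-high arrays correlated at 0.968 to 0.993, pairs of fat-rich arrays at 0.986 to 0.995 and pairs across the sets at 0.892 to 0.934.

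**Figure D2:**
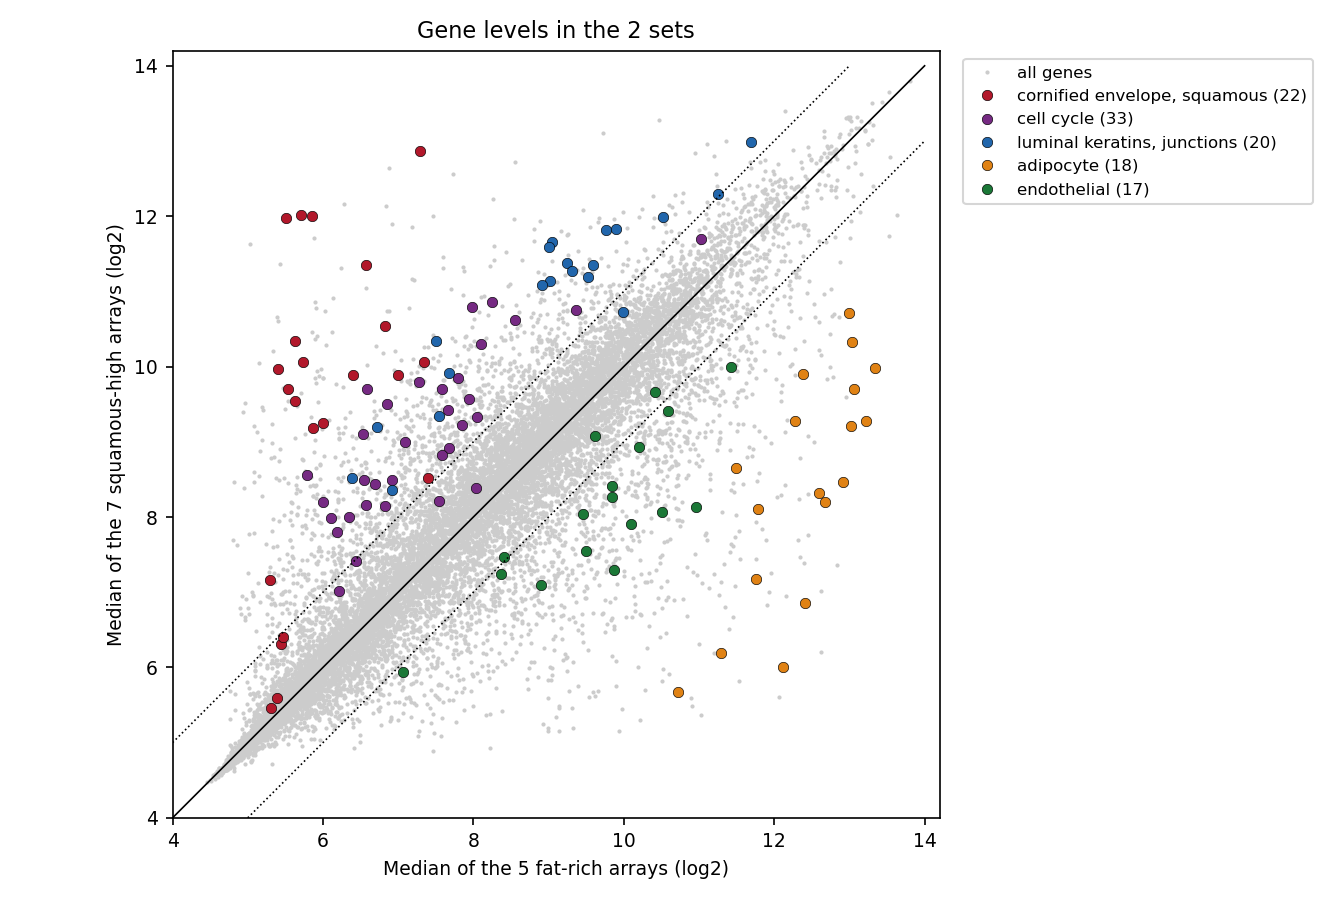
Median expression (log2) of each gene in the 5 fat-rich arrays (horizontal axis) and the 7 squamous-high arrays (vertical axis); grey points are all 19937 genes, coloured points are members of 5 lists, the solid line marks equal levels and dotted lines a difference of 1. Squamous, cell cycle and luminal genes lie above the line, and adipocyte and endothelial genes below it.

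Genes of the cornified envelope and of terminal squamous differentiation made up the largest differences upward. Of 22 measured members of that list, 17 were apart and higher in the squamous-high arrays and 0 were lower, with a median difference of 3.60. The list holds Sprr1b, which helped to choose the arrays, and without it the count was 16 of 21 and the median 3.48. Crct1, a cysteine-rich cornified envelope gene of the epidermal differentiation complex, had the highest difference of any gene apart, 6.46, and stood at 9.42 to 12.77 (median 11.98) against 5.51, 5.42, 5.58, 5.45 and 5.58 in Lgr5 tumors 2, 6, 7, 8 and 9. The kallikreins, serine proteases that in epidermis cut the adhesions between shedding cells, had 4 members among the 20 largest differences, Klk6 (6.30), Klk7 (6.14), Klk14 (5.83) and Klk10 (5.77). Klk6 was at 11.07 to 12.74 in the squamous-high arrays and at 5.40 to 5.83 in the fat-rich arrays. Asprv1, a protease that processes filaggrin, differed by 5.89, Sprr1a by 5.58, Krtdap by 4.71, the desmosomal cadherin Dsg3 by 4.56 and the involucrin gene Ivl by 4.17. Tgm1, the main transglutaminase that cross-links the envelope, was at 8.51 to 10.19 against 6.87 to 7.23. Sprr1a varied in the fat-rich set, at 6.66, 7.29, 10.33, 6.94 and 7.72, so that Lgr5 tumor 7 came within 1.23 of the lowest squamous-high array.

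Not all envelope genes followed. Lor, which encodes loricrin, the most abundant envelope protein of epidermis, was at 5.22 to 5.68 in the squamous-high arrays and 5.24 to 5.39 in the fat-rich arrays, and Sprr3 was at 5.35 to 5.82 and 5.35 to 5.46. The sets overlapped for both genes. Cdsn, the desmosome protein corneodesmosin, was at 7.75 to 9.63 in the squamous-high arrays and higher still in 2 fat-rich arrays, at 10.21 in Lgr5 tumor 2 and 10.17 in Lgr5 tumor 9, against 7.06 to 7.40 in the other three.

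Among suprabasal and stress keratins 6 of 11 were apart and higher and 0 lower, with a median difference of 2.55 that was 3.04 over the gland-titled arrays alone. Krt6a, Krt6b and Krt16, keratins that epidermis makes on wounding and hyperproliferation, differed by 4.90, 5.07 and 4.00. Krt6b was at 10.01 to 12.08 in the squamous-high arrays and at 6.18, 6.24, 6.23, 6.30 and 6.36 in the fat-rich arrays. Krt79, a keratin of hair follicle and sebaceous ducts, differed by 5.28. Krt1 and Krt10, the keratin pair of normal epidermal differentiation, varied among the squamous-high arrays, Krt10 at 6.28 to 9.14 and Krt1 at 5.87 to 9.79, with Lgr5 gland 2 lowest for both and inside the fat-rich range of Krt1 (5.83 to 6.02). Krt13 and Krt4, the pair of internal squamous linings such as oral mucosa, were at most 5.98 and 6.94.

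Basal keratins, p63 and hemidesmosome genes had 7 of 11 members apart and higher and 1 lower, with a median difference of 1.16. Krt14 was at 11.49 to 12.37 against 8.71, 8.54, 8.46, 8.23 and 9.29, and Krt5 at 11.03 to 11.75 against 8.38 to 9.81. Krt5 was no higher in the squamous-high arrays than in the other 13 tumors, where it was at 11.56 to 12.34. Trp63, the transcription factor of basal cells, was at 9.11 to 9.95 and 7.81 to 9.03 and its medians differed by 0.91, short of the size required. Dst, a plakin that ties keratin to hemidesmosomes and is also made in muscle and nerve, was lower, at 7.81 to 9.00 against 9.74 to 10.26.

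The genes of the myoepithelial contractile list went the other way with 0 of 9 apart and higher, 2 lower and a median difference of -1.13. Which cells made these transcripts was not tested. Oxtr, the oxytocin receptor, was at 7.13 to 9.45 against 9.55 to 10.24, and the smooth muscle myosin Myh11 at 6.66 to 8.96 against 9.23 to 9.91. Cnn1, calponin, was at 6.55, 8.18, 6.89, 7.61, 7.10 and 6.61 in 6 of the squamous-high arrays and at 9.49 in Lgr5 gland 2, which lay inside the fat-rich range of 9.05 to 10.09. In the other 13 tumors it was higher than in either set, at 10.86 to 12.76.

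Luminal keratins and epithelial junction genes were higher in the squamous-high arrays almost throughout: 19 of 20 were apart and higher and 0 lower, with a median difference of 2.00. Cldn7 and Cldn4, tight junction claudins, differed by 2.84 and 2.58, the keratin Krt7 by 2.60, occludin (Ocln) by 2.48 and the epithelial splicing regulators Esrp2 and Esrp1 by 2.25 and 2.18. Krt8, whose promoter drives Cre in the K8 line, was at 12.86 to 13.20 in the squamous-high arrays and at 11.49, 11.69, 11.90, 11.25 and 11.81 in the fat-rich arrays. Epcam was at 10.89 to 11.35 against 9.10 to 10.08. Epithelial RNA was thus measured in every array of both sets. The means of the 20 genes were 10.61 to 11.03 in the squamous-high arrays, 8.64 to 9.39 in the fat-rich arrays and at most 10.67 in the other tumors. In bulk tissue, fewer cells of a type and less RNA per cell cannot be told apart.

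Of 8 luminal progenitor genes 7 were apart and higher, with a median difference of 1.36. Their list mean was 10.34 to 10.72 in the squamous-high arrays and 8.71 to 9.39 in the fat-rich arrays. In the other tumors it was 10.03 to 10.68, so the fat-rich arrays were the low ones. Elf5, a transcription factor of alveolar progenitors, was at 11.42 to 12.07 against 9.10, 10.48, 9.55, 9.29 and 9.89, and Sox10 at 9.96 to 10.79 against 7.78 to 9.15. Among milk and alveolar genes 4 of 11 were apart and higher and 0 lower, with a median difference of 1.80. Ltf, the milk iron-binding protein lactoferrin, differed by 4.17, at 11.25 to 12.96 against 7.21 to 9.65, and Wap, whey acidic protein, by 3.04. Caseins varied widely in the fat-rich set. Csn1s1 was at 12.68 to 12.93 in the squamous-high arrays and at 5.52 in Lgr5 tumor 2 and 10.55 to 12.46 in the other 4 fat-rich arrays, and Csn2 was at 7.09, 12.54, 8.97, 10.57 and 9.73, so that Lgr5 tumor 6 reached the squamous-high range of Csn2 (12.01 to 13.57) and Lgr5 tumor 2 stood lowest. Without Lgr5 tumors 6, 7 and 8 the median difference of the list was 3.14.

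Hormone-sensing luminal genes were mostly lower or similar, with 1 of 11 apart and higher and 2 lower. The median difference was -0.18, which was -0.70 with set means and -1.14 without dim genes (those that nowhere reach 7). This filter, here and below, drops genes low in every array and keeps those high in either set. It can enlarge a list median by that alone. Esr1, the estrogen receptor, was at 7.26 to 8.22 in the squamous-high arrays and at 9.46, 9.65, 9.61, 9.57 and 9.81 in the fat-rich arrays. Foxa1, a cofactor of that receptor, was at 7.15 to 7.98 in 5 squamous-high arrays but at 9.49 in Lgr5 gland 1 and 9.72 in Lgr5 gland 2, against 9.66 to 10.15. Pgr, the progesterone receptor and an estrogen receptor target, was at 5.84 to 6.76 against 6.67 to 8.86, and at 8.66 to 10.16 in the other tumors. Xbp1, a secretory-cell factor of this list, was the member higher in the squamous-high arrays, at 12.52 to 13.02 against 11.67 to 11.81. Tnfsf11 (RANKL), a progesterone target, was at 7.39 to 7.66 in the squamous-high arrays and stood out in Lgr5 tumor 2 (9.24) and Lgr5 tumor 9 (9.16), the same arrays that had the highest Cdsn.

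Cell cycle genes were higher in the squamous-high arrays: 28 of 33 were apart and higher and 0 lower, with a median difference of 1.75. Plk1, a mitotic kinase, had the largest difference, 3.12, at 9.48 to 10.22 against 6.30, 6.58, 7.62, 6.10 and 7.30. Ccnb2 differed by 2.81, the spindle checkpoint kinase gene Bub1 by 2.77, the ribonucleotide reductase subunit gene Rrm2 by 2.65, Ccna2 by 2.61 and the mitotic kinesin Kif20a by 2.57. Mki67, the proliferation antigen Ki-67, was at 10.40 to 11.14 (median 10.62) in the squamous-high arrays and at 8.56, 8.02, 9.48, 7.37 and 9.63 in Lgr5 tumors 2, 6, 7, 8 and 9. Replication licensing genes differed less, from 1.25 for Mcm4 to 1.91 for Mcm6, and E2f1, Ccne1, Pcna, Cdc6 and Birc5 were the 5 members not counted, with differences of 0.35 to 0.98. The list mean was 8.90 to 9.55 in the squamous-high arrays, with K8 gland 1 highest, and 6.98 to 7.83 in the fat-rich arrays, with Lgr5 tumor 8 lowest and Lgr5 tumor 9 highest. In the other 13 tumors it reached 9.14, so the high end of the other tumors overlapped with the squamous-high arrays.

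Cell cycle regulators did not move as one: 2 of 11 were apart and higher, 1 was lower and the median difference was 0.35. Ccnd1, a cyclin that answers growth factors, was at 11.70 to 12.40 against 10.09 to 11.07, and Cdkn2b, an inhibitor of its kinase, at 8.53 to 9.14 against 7.15 to 7.49. Ccnd2 was the member lower in the squamous-high arrays, at 8.54 to 10.21 against 11.16 to 11.31. Myc was at 10.57 to 11.03 against 9.17 to 10.36, with medians 0.77 apart.

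**Figure D3:**
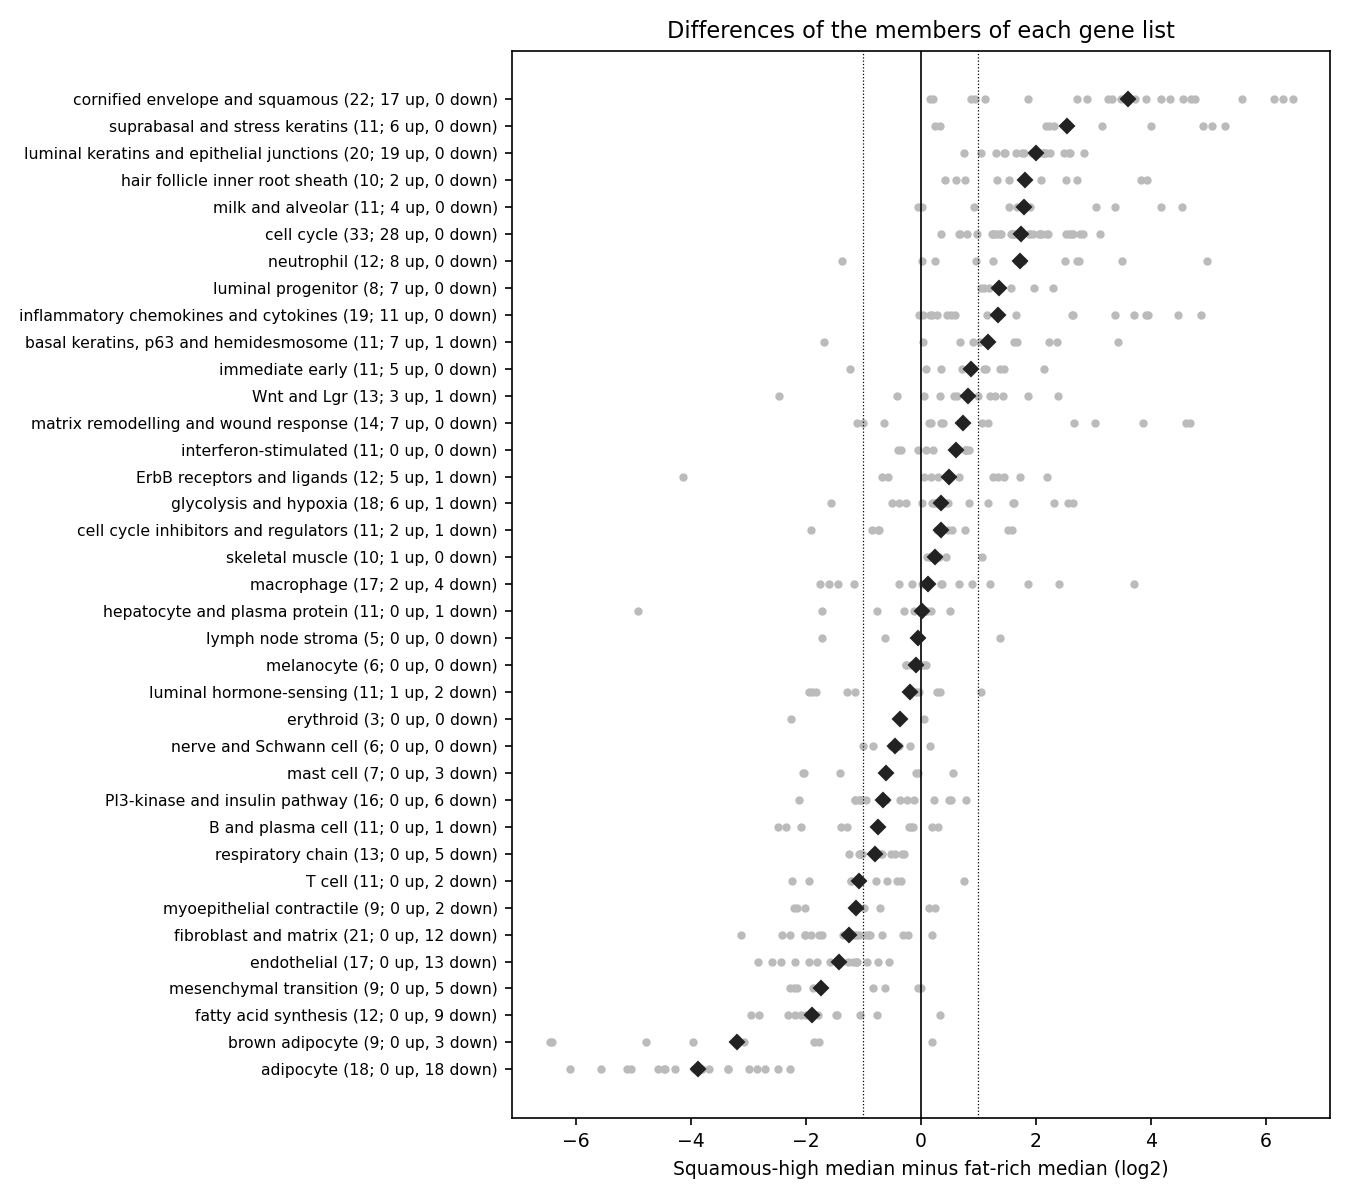
Difference between the set medians (squamous-high minus fat-rich, log2) for each measured member of 37 gene lists (grey points) and the median of each list (black diamonds); dotted lines mark differences of 1, and the labels give members measured and members apart in each direction. Squamous genes are at the top with a median of 3.60 and adipocyte genes at the bottom with -3.88.

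Fat-cell genes formed the largest differences downward. All 18 measured adipocyte genes were apart and lower in the squamous-high arrays, with a median difference of -3.88. One of them, Adipoq, helped to choose the arrays, and the other 17 had a median of -3.81. Ces1d, a triglyceride hydrolase, was at 12.12, 12.15, 12.04, 12.21 and 11.84 in Lgr5 tumors 2, 6, 7, 8 and 9 and at 5.55 to 8.16 in the squamous-high arrays. Lep, leptin, was at 12.18, 11.14, 11.30, 11.19 and 11.72 against 5.50 to 6.78. Aqp7, the glycerol channel of fat cells, differed by -5.56, the lipid droplet coat genes Plin4 and Plin1 by -4.58 and -4.47, and Pparg, the master regulator of fat-cell differentiation, by -3.68. Tshr, the thyrotropin receptor, at 11.21 to 11.79 against 5.50 to 6.34, and Cyp2e1, Pck1, Gys2, Trarg1 and Rbp4, with differences of -5.06 to -5.60, were also among the 20 lowest. The squamous-high arrays were not alike in this respect. Their list means ran from 7.56 in Lgr5 gland 2 to 9.43 in Lgr5 gland 3, while the 5 fat-rich arrays started at 12.34. In the other tumors the list mean was 7.82 to 11.05, also below the fat-rich arrays.

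Brown fat genes split the fat-rich set. Ucp1, the uncoupling protein that makes brown fat produce heat, was at 12.47, 12.07 and 12.18 in Lgr5 tumors 6, 7 and 8 and at 5.92 and 5.89 in Lgr5 tumors 2 and 9, against 5.54 to 7.37 in the squamous-high arrays. Cidea (11.61, 11.33 and 11.64 against 8.33 and 7.53), Elovl3 and Cox7a1 were high in the same 3 arrays. Cox8b had the lowest difference of any gene apart, -6.42, and was at 11.43 to 12.97 in the fat-rich arrays. It was at 10.03 in Lgr5 tumor 10, 9.08 in Lgr5 gland 3 and at most 6.26 in the other 5 squamous-high arrays. Lgr5 tumor 10 and Lgr5 gland 3 also had the highest skeletal muscle list means of the squamous-high set, 9.58 and 8.34. Of 9 brown fat genes 3 were apart and lower in the squamous-high arrays, with a median difference of -3.20, which was -0.55 without Lgr5 tumors 6, 7 and 8. Without those 3 arrays Elovl3 and Cox7a1 turned to differences of 0.12 and 0.30.

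Fatty acid synthesis genes had 9 of 12 members apart and lower and 0 higher, with a median difference of -1.89, or -1.19 without Lgr5 tumors 6, 7 and 8. Mlxipl, the carbohydrate-sensing transcription factor ChREBP, differed by -2.95, the acetyl-CoA synthetase gene Acss2 by -2.82 and Acaca, the gene of acetyl-CoA carboxylase, by -2.20. Fasn was at 13.10, 13.59, 13.52, 13.60 and 13.39 against 11.09 to 12.42. Respiratory chain genes had 5 of 13 members apart and lower, with a median difference of -0.81, or -0.29 without Lgr5 tumors 6, 7 and 8. Ndufs1 was at 10.84, 10.72 and 10.93 in those 3 arrays and at 10.14 and 10.09 in Lgr5 tumors 2 and 9, against 9.22 to 9.56 in the squamous-high arrays. The respiratory chain list mean was 10.90 to 11.08 in the squamous-high arrays, 11.32 to 11.93 in the fat-rich arrays and 10.75 to 11.2 in the other tumors. For fatty acid synthesis these ranges were 10.09 to 10.91, 11.43 to 12.35 and 9.74 to 11.40. For both lists the other tumors overlapped with the squamous-high arrays.

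Stromal genes were lower in the squamous-high arrays, though by less than fat-cell genes. Of 21 fibroblast and matrix genes 12 were apart and lower and 0 higher, with a median difference of -1.25. Ogn, the small proteoglycan osteoglycin, differed by -3.13, Fap by -2.41, Lum by -2.28, Col3a1 by -2.02 and Pdgfra, a receptor of fibroblasts and fat-cell precursors, by -2.01. Pdgfra was at 11.02, 10.72, 10.72, 10.72 and 10.77 in the fat-rich arrays and at 8.05 to 9.54 in the squamous-high arrays. Other matrix genes overlapped between the sets, with Col1a1 at 10.28 to 11.54 against 11.20 to 12.25, Fn1 at 11.94 to 12.56 against 12.28 to 12.83, and Bgn at 11.66 to 12.49 against 11.72 to 12.13. Of 9 mesenchymal transition genes 5 were apart and lower, among them the transcription factors Zeb1 (-2.28), Twist2 (-2.21), Prrx1 (-2.15), Zeb2 (-1.87) and Twist1 (-1.74), while Snai1 and Cdh2 differed by 0.01 and -0.04.

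Endothelial genes had 13 of 17 members apart and lower and 0 higher, with a median difference of -1.43. Tek, the angiopoietin receptor, was at 6.80 to 8.04 against 10.07, 9.98, 9.71, 9.87 and 9.88, and Cldn5, an endothelial claudin, at 7.54 to 8.02 against 9.84 to 10.42. Flt1, a receptor for vascular growth factors, differed least, by -0.55. Mast cell genes had 3 of 7 members apart and lower, the proteases Mcpt4 (-2.06), Cpa3 (-2.04) and Tpsb2 (-1.42), with a median over the list of -0.60, or -1.73 without dim genes. Among the squamous-high arrays the fibroblast, endothelial and mast cell means were lowest in K8 gland 1 and highest in Lgr5 tumor 10. What part the share of fat, stroma and epithelium had in the other differences was not tested.

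Matrix remodelling and wound genes, as a list, had a median difference opposite in sign to that of the fibroblast and matrix list. Which cells made their transcripts was not tested. Of 14, 7 were apart and higher in the squamous-high arrays and 0 lower, with a median difference of 0.73, or 1.12 without dim genes. Mmp12, the macrophage elastase, was at 9.77 to 12.37 against 8.60, 7.18, 6.95, 7.19 and 7.09, and Mmp13, a collagenase, at 9.65 to 10.92 against 5.80 to 5.88. Tnc, the wound matrix protein tenascin C, was at 10.53 to 11.72 against 6.16, 6.27, 7.91, 7.12 and 6.88, and Inhba, the activin A subunit, at 8.97 to 9.63 against 6.20 to 6.57. The inhibitor Timp1 differed by 2.66. Mmp3 and Lox had differences of -1.11 and -1.01 but overlapped between the sets.

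Neutrophil genes and inflammatory mediators were higher in the squamous-high arrays. Of 12 neutrophil genes 8 were apart and higher and 0 lower, with a median difference of 1.73. Without S100a8, which helped to choose the arrays, the count was 7 of 11 and the median 1.68. S100a9, the partner of S100a8, was at 7.33 to 9.95 against 5.76 to 5.87. The chemokine receptor gene Cxcr2 was at 6.91, 8.84, 8.62, 6.55, 7.81, 6.61 and 8.58 in K8 tumor 9, Lgr5 tumor 10, Lgr5 glands 1, 2 and 3 and K8 glands 1 and 2, and at 5.15 to 5.91 in the fat-rich arrays. Csf3r, the receptor for the neutrophil growth factor, was at 6.56 to 8.82 against 5.81 to 6.19. Ngp and Retnlg, granule and secreted genes of neutrophils, were at 7.45 and 7.80 in Lgr5 gland 1 but within 5.22 to 6.15 in the other squamous-high arrays. Il1r2, the interleukin-1 decoy receptor, overlapped and had a difference of -1.36.

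Of 19 inflammatory chemokines and cytokines 11 were apart and higher and 0 lower, with a median difference of 1.34, or 2.64 without dim genes. Ccl3 was at 8.93 to 11.12 against 5.89, 5.72, 6.01, 5.78 and 5.99. The interleukin-1 family stood together, with Il1b (3.95), Il1a (3.71), the antagonist Il1rn (3.37) and the epithelial members Il1f6 (4.87) and Il1f9 (3.91) all apart. Il1f6 was at 9.73 to 10.72 in 6 squamous-high arrays and at 5.49 in Lgr5 gland 2, against 5.31 to 5.44 in the fat-rich arrays. Cxcl5 and Cxcl2, neutrophil attractants, differed by 1.65 and 2.63 and were both highest in Lgr5 gland 1, at 8.65 and 9.59, and lowest in Lgr5 gland 2, at 5.51 and 5.81. Ptgs2, the inducible cyclooxygenase, was at 8.34 to 10.29 against 6.64 to 7.02. Il6, Csf2 and Csf3 were at most 5.78 in both sets. The acute-phase gene Saa2 differed by 5.21 and Pigr, which carries antibodies into milk, by 4.78, both among the 20 highest.

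Macrophage genes did not go one way: 2 of 17 were apart and higher, 4 lower, and the median difference was 0.11. Arg1, an enzyme of arginine breakdown found in alternatively activated macrophages and also in epidermis, was at 9.97 to 11.96 against 8.61, 8.37, 7.09, 7.60 and 6.94, and the scavenger receptor gene Msr1 at 8.77 to 10.55 against 7.79 to 8.40. Cd163, Folr2, Mrc1 and Maf, genes of resident tissue macrophages, were lower by -1.76, -1.60, -1.44 and -1.16. The general macrophage genes overlapped, with Adgre1 at 8.92 to 9.71 against 8.99 to 9.65 and C1qa at 10.00 to 10.64 against 10.02 to 10.51. Interferon-stimulated genes had 0 of 11 members apart and a median difference of 0.61.

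T and B cell genes separated the fat-rich arrays from one another more than from the squamous-high arrays. Cd3g, a T cell receptor subunit, was at 9.00, 7.03, 9.45, 8.95 and 7.37 in Lgr5 tumors 2, 6, 7, 8 and 9 and at 6.40 to 7.26 in the squamous-high arrays, and the B cell gene Ms4a1 (CD20) at 7.48, 5.12, 8.01, 7.83 and 5.19 against 5.04 to 5.29. Lgr5 tumors 2, 7 and 8 were high for both. The same arrays had the highest Cxcl13, a chemokine that draws B cells, at 10.75, 10.65 and 10.63 against 8.59 and 8.12. T cell genes had 2 of 11 members apart and lower, with a median of -1.07, and B and plasma cell genes 1 of 11, with a median of -0.74. Without Lgr5 tumors 2, 7 and 8 these medians were 0.01 and -0.03, and Ccr7, Fcer2a and Cxcl13 turned to differences of 0.19, 0.04 and 0.55. The lymph node stroma list had 0 of 5 members apart.

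**Figure D4:**
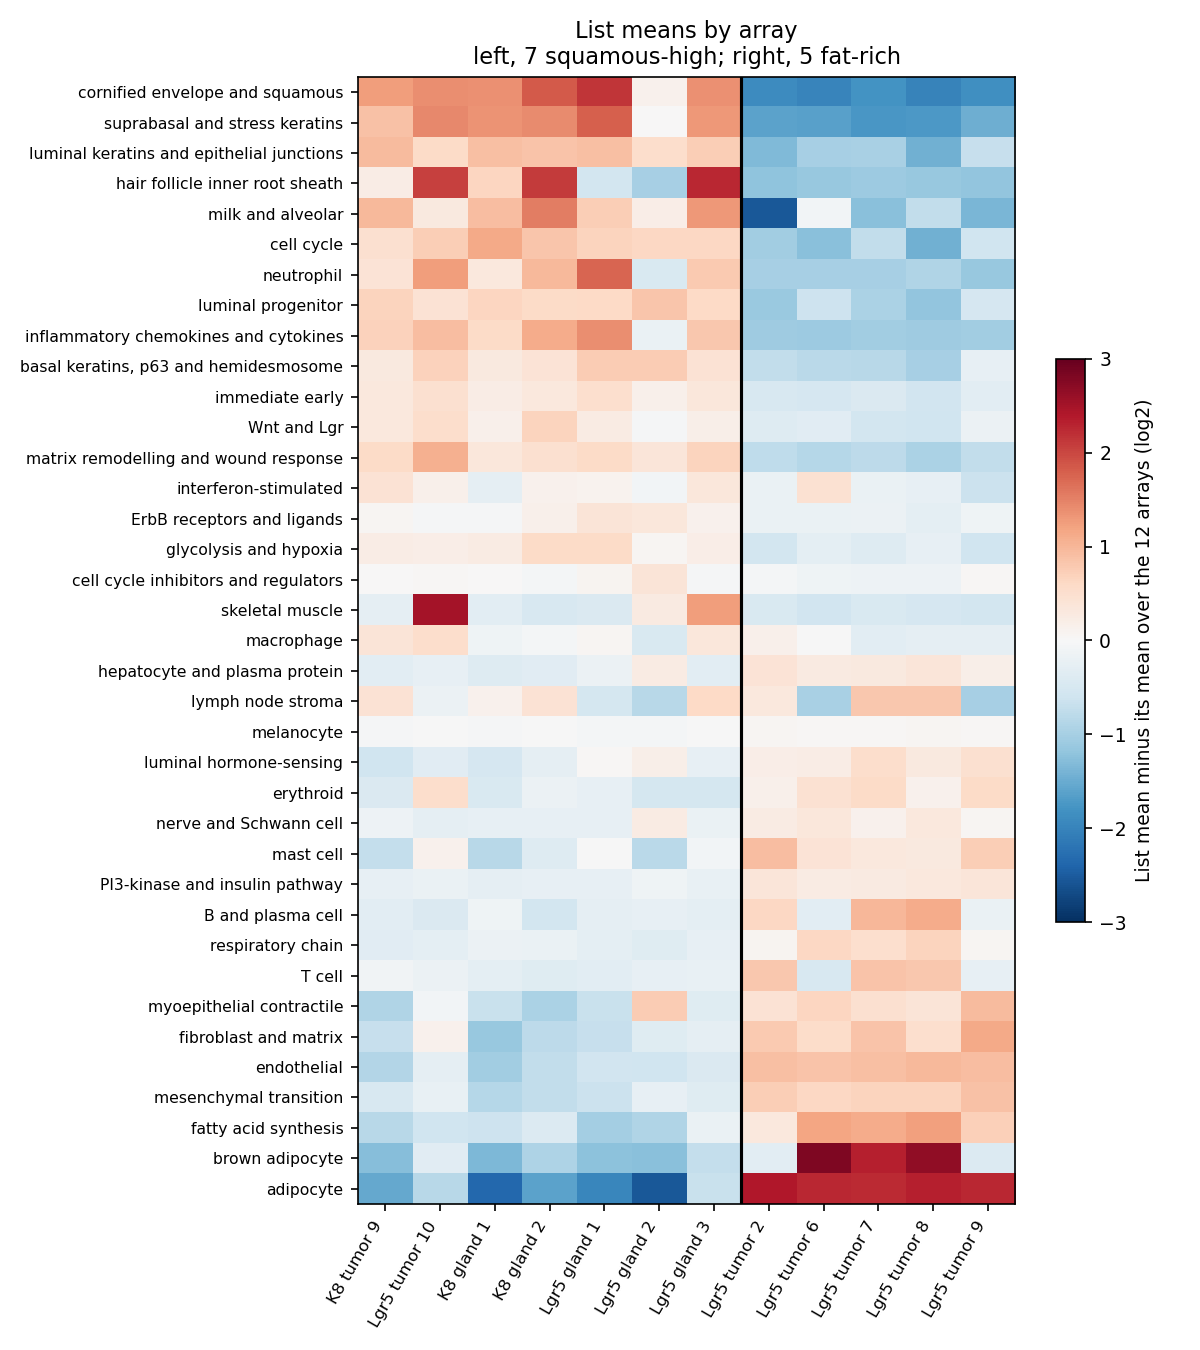
Mean expression of each of 37 gene lists in each array, minus the mean of that list over the 12 arrays (log2; red higher, blue lower), with 7 squamous-high arrays left of the line and 5 fat-rich arrays right of it. Lgr5 gland 2 is the lowest squamous-high array for squamous and neutrophil genes and falls below the mean of the 12 arrays for neutrophil genes. Brown fat, T cell and B cell genes divide the fat-rich arrays.

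Growth factor and signalling genes showed smaller and mixed differences. Pik3ca, the gene whose H1047R form the tumor lines carry, was at 10.25 to 10.44 in the squamous-high arrays and at 10.57, 10.62, 10.60, 10.67 and 10.64 in the fat-rich arrays. The medians differed by -0.24, and the arrays do not separate the mutant from the normal allele. Of 16 PI3-kinase and insulin pathway genes 6 were apart and lower and 0 higher, with a median difference of -0.67. They were Igf1 (-2.13), Inpp4b (-1.15), Akt2 (-1.14), Insr (-1.08), Sesn1 (-1.03) and Deptor (-1.03). Akt2 and Insr encode the kinase and receptor of insulin signalling that fat cells use.

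Among ErbB receptors and ligands 5 of 12 were apart and higher and 1 lower, with a median difference of 0.48, or 1.26 without dim genes. Hbegf, Tgfa and Epgn, ligands of the epidermal growth factor receptor, differed by 2.19, 1.45 and 1.33, and the receptors Erbb3 and Erbb2 by 1.72 and 1.26. Hbegf was at 8.03 to 9.46 against 6.43 to 6.66. Nrg4, a neuregulin secreted by fat, was the member lower in the squamous-high arrays, at 5.45 to 6.61 against 9.78, 10.00, 9.90, 10.25 and 9.44.

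In the Wnt and Lgr list 3 of 13 were apart and higher and 1 lower, with a median difference of 0.82. Lgr5, whose promoter drives Cre in the Lgr5 line, was at 9.14, 9.14, 9.65, 8.61, 8.05, 8.70 and 9.69 in K8 tumor 9, Lgr5 tumor 10, Lgr5 glands 1, 2 and 3 and K8 glands 1 and 2, and at 6.86, 6.60, 6.30, 6.76 and 7.07 in the fat-rich arrays, all of which are titled Lgr5 tumors. Arrays titled for either line were thus high, and the other tumors spread from 5.88 to 9.82. Axin2, a direct Wnt target, was at 7.65 to 8.46 in 6 squamous-high arrays and 5.74 in Lgr5 gland 2, against 6.53 to 6.91. Rspo1, a ligand of the Lgr receptors, was lower, at 7.25 to 7.62 against 9.81, 9.98, 7.71, 7.68 and 10.44, with Lgr5 tumors 7 and 8 close to the squamous-high arrays.

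Glycolysis and hypoxia genes had 6 of 18 members apart and higher and 1 lower, with a median difference of 0.36 that was 0.56 with set means and 0.69 without Lgr5 tumors 6, 7 and 8. Egln3, an oxygen sensor induced by hypoxia, differed by 2.64, the lactate exporter Slc16a3 by 2.56 and the glucose transporter Slc2a1 by 2.31. Slc2a1 was at 11.78 to 12.30 against 9.74, 9.67, 9.61, 9.64 and 9.67, and in the other tumors at 10.84 to 11.63. Enzymes of glycolysis such as Ldha (12.98 to 13.23 against 12.74 to 12.98) differed by less than 1. Of 11 immediate early genes, which handling of tissue can induce, 5 were apart and higher, with Atf3 (2.15), Ier3 (1.44) and Fos (1.37) foremost, while Dusp1 had a difference of -1.23 and overlapped.

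Markers of other tissues were read beside these results. Of 11 hepatocyte and plasma protein genes Alb was apart, which the choice of the fat-rich arrays fixed, and 0 of the other 10 were, with a median difference of 0.03. Other liver genes overlapped between the sets, with Ahsg at 5.37 to 5.59 and 5.39 to 5.51, Apoh at 5.33 to 5.49 in all 12 arrays and Apoa1 at 5.97 to 6.27. The fibrinogen gene Fgg was at 8.95 to 12.61 in the other tumors, at 8.04 to 9.15 in the fat-rich arrays and at 6.22 to 10.15 in the squamous-high arrays, with Lgr5 gland 2 highest. Skeletal muscle genes had 1 of 10 members apart (Mb, 1.06). The muscle list mean was 9.58 in Lgr5 tumor 10 against a squamous-high median of 6.82, with Ckm at 10.99 there and 9.98 in Lgr5 gland 3. Nerve and Schwann cell genes (6 measured), melanocyte genes (6) and erythroid genes (3) had 0 members apart, with medians of -0.46, -0.08 and -0.36. Without dim genes the erythroid value was -2.26, which is that of Alas2 alone. The other erythroid genes, Slc4a1 and Epb42, differed by -0.36 and 0.04.

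Hair follicle genes marked some of the squamous-high arrays. Of 10 inner root sheath genes 2 were apart and higher, with a median difference of 1.81, or 0.51 without Lgr5 gland 3, K8 gland 2 and Lgr5 tumor 10. Krt73, an inner root sheath keratin, was at 8.78, 10.60, 7.22, 5.78, 11.23, 9.64 and 10.83 in K8 tumor 9, Lgr5 tumor 10, Lgr5 glands 1, 2 and 3 and K8 glands 1 and 2, and at most 5.79 in the fat-rich arrays. Trichohyalin (Tchh) was at 9.09 to 10.66 in 6 arrays and 5.69 in Lgr5 gland 2. The hair shaft genes Krtap7-1 and Krtap15, among the 5 genes with the widest range in the set, reached 12.72 and 12.29 in Lgr5 tumor 10 and were at 5.86 and 5.34 in Lgr5 gland 1. Lgr5 gland 1 had the highest mean of the squamous list, 10.15. Its inner root sheath list mean was 6.40, against at most 5.84 in the fat-rich arrays and 5.95 in the other tumors. What part skin or hair tissue had in the squamous differences was not tested.

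Lgr5 gland 2 stood apart from the other squamous-high arrays. It correlated with them at 0.968 to 0.973 across genes and at 0.981 with K8 tumor 10, one of the other tumors. It was lowest in the set for the squamous (8.14), neutrophil (6.85) and inflammatory (6.69) list means and highest for the myoepithelial mean (9.69). Defb6, an antimicrobial beta-defensin, was at 10.03 to 12.64 in the other 6 arrays and at 5.72 in Lgr5 gland 2, and the kallikrein gene Klk14 at 11.49 to 12.27 and 7.12. Its cell cycle mean, by contrast, lay inside the range of the set. Without it 1201 genes were apart and higher and 1199 lower.

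Bpifa2 and Chia1, the genes with the widest ranges in the squamous-high set, were high in K8 gland 1 and in no other of the 25 arrays. Bpifa2, known as parotid secretory protein, was at 13.20 there and at 5.28 to 5.87 in the other 11 arrays of both sets and 5.20 to 5.43 in the other tumors, and Chia1, an acidic chitinase of salivary and stomach glands, at 12.88 against 5.16 to 5.36 and 5.17 to 5.38. Krtap15, Krtap7-1 and Defb6 had the next widest ranges.

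**Figure D5:**
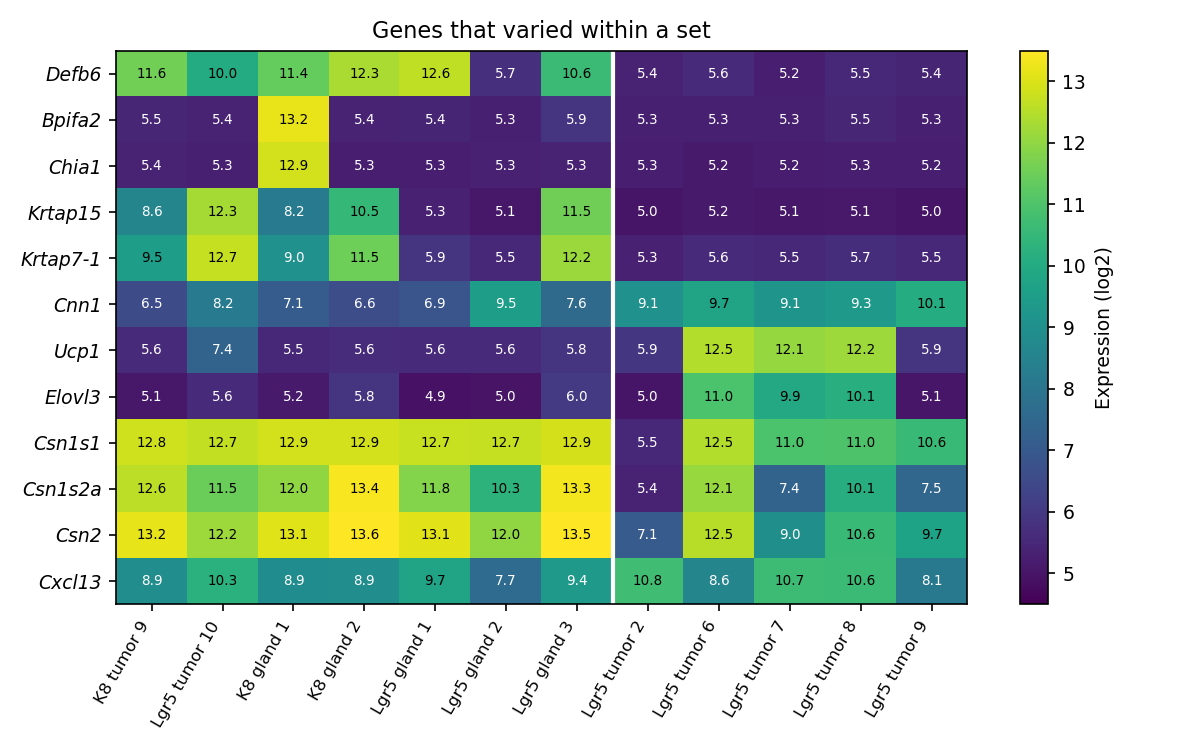
Expression (log2, printed in each cell) of 12 genes that varied within a set, in the 7 squamous-high arrays (left of the line) and the 5 fat-rich arrays (right). Bpifa2 and Chia1 are high in K8 gland 1 alone, and Ucp1 and Elovl3 in Lgr5 tumors 6, 7 and 8. The Krtap genes are high in squamous-high arrays that include Lgr5 tumor 10, Lgr5 gland 3 and K8 gland 2.

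One comparison inside the squamous-high set rests on titles and was not used to choose the arrays. It set the 3 Lgr5 glands against the 2 K8 glands, which by their labels differ in Cre line and in strain background together. These titles are in doubt, so the groups may not be what they name. No result of the comparison, including genes not called, can therefore be assigned to a line. With limma and Benjamini-Hochberg adjustment over all genes, 0 genes (0%) passed an adjusted p of 0.05, and 761 (3.82%) had an unadjusted p under 0.05. The smallest p belonged to Tpm2, a tropomyosin of muscle and myoepithelium, with means of 8.70 in Lgr5 glands and 7.49 in K8 glands and a difference of 1.22 ± 0.11 (SE; limma adjusted p = 0.974). On simulated data of this comparison the fit recovered 62 of 100 genes changed by 1 and 83 of 100 changed by 2 on the log2 scale, with 11 false calls. The simulated noise was independent between genes, without differences that run through a whole array, such as those of Lgr5 gland 2. These rates therefore do not show what the real glands could reveal. Leaving out K8 gland 2 gave 0 genes higher and 5 lower in Lgr5 glands, BC037156, Chia1, Cst10, Dnase1 and Smr3a, where the remaining K8 gland is assumed to vary like the Lgr5 glands. Among the 5 glands, K8 gland 1 alone was high for all 5 genes: Cst10 was at 11.95 there and at 5.19 to 5.23 in the other 4 glands.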

How the data were processed

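The deposited table gives 34760 probe sets for each of 25 arrays. The submitters' processing notes name affy, with neither role nor version. The deposited values, from 4.13 to 13.9, are 1 per probe set and array and were taken as log2 expression from this range; no source states the base or how the authors scaled the arrays. Per the labels' protocols, RNA was extracted with Trizol and 100 ng of input was amplified with a whole-transcript kit. For the background correction and build, nothing is given in the sources here. Array medians lay between 6.34 and 6.43, and no 2 arrays held identical values. The number of arrays limits the precision.

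Probe sets with 1 gene symbol in the platform annotation (21640; 1321 had several and 11799 were unlisted) were reduced to 19937 genes by keeping the brightest of several. Sets were described by medians, ranges and gaps, in Python 3.11.15. The one test, Lgr5 gland against K8 gland, used limma 3.58.1 (lmFit, eBayes, Benjamini-Hochberg) on the 5 gland arrays. Nothing says the arrays came from separate animals, so its p-values reflect the spread of these arrays, possibly technical. Both procedures were tested on simulated data. Of 502 listed genes in 37 lists, 469 were measured; the others were not analysed here. The members of the sets and the lists were chosen with earlier results of these data known.

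Genes were named by a rule: the 4 markers; the 20 highest and 20 lowest differences among genes apart, without predicted, RNA and receptor or immunoglobulin segment genes; in each list the 6 largest differences and members defining for their role; the 5 widest ranges in each set; Pik3ca, Lgr5 and Krt8. The rule also takes genes called between the glands, of which there were none. Tpm2, the 5 genes called without K8 gland 2 and other list members, named as exceptions or counterparts, were chosen after their values were seen. Alternatives covered the choice of probe set, quantile normalization, median-centring, set means, a filter on dim genes, gland-titled arrays only, other sizes of difference and leaving out arrays. The labels do not say whether the replicate numbers of the titles pair glands. Deviations of same-numbered glands from their group means correlated at -0.09 and -0.28. With 2 K8 glands their deviations mirror each other, so these values cannot decide pairing.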

Additional observations from a re-analysis of the deposited data

Results flagged for a closer look

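Means of 37 gene lists and the 4 markers were screened in each set with Dixon's criterion for an array far from the others, 82 sets of values in all, of which chance would flag about 1 in 20. In 6 an array of the squamous-high set lay beyond the critical value, and in 0 an array of the fat-rich set. Lgr5 gland 2 was highest for cell cycle inhibitors and regulators (list mean 9.76, next 9.46), for hepatocyte and plasma protein genes (8.01, next 7.58) and for nerve and Schwann cell genes (6.59, next 6.18), and lowest for S100a8 (8.54, next 10.06). Lgr5 tumor 10 was highest for erythroid genes (7.25, next 6.56). K8 tumor 9 was lowest for Sprr1b (8.43, next 9.67). Sprr1b and S100a8 helped to choose the arrays, so their values only describe the spread within the set. No cause was tested.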

How the results depend on the processing

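The counts of genes apart rest on the size asked for: with no minimum difference they were 3778 higher and 3091 lower, and with at least 2 log2 327 and 392. Leaving out 1 array at a time gave 1042 to 1201 higher and 1112 to 1204 lower. The list medians that moved by more than their spread when 1 array was left out were hormone-sensing (-0.91 to -0.15), respiratory chain (-0.92 to -0.55), T cell (-1.20 to -0.51) and melanocyte (-0.10 to -0.06).

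The following list medians moved; the cause was not tested. With each array centred, PI3-kinase was -0.76 and melanocyte -0.15. With set means, hormone-sensing was -0.70, glycolysis 0.56, PI3-kinase -0.75 and melanocyte -0.06. Without dim genes, which leaves fewer members, suprabasal keratins were 3.15, hormone-sensing -1.14, remodelling 1.12, chemokines 2.64 and mast cell -1.73. In that setting ErbB was 1.26, Wnt 1.09, hepatocyte -0.52 and erythroid -2.26, the value of Alas2 alone. The filter keeps genes high in either set and drops those low in every array, so its larger medians are no added evidence of a difference. Over gland-titled arrays, suprabasal keratins were 3.04. The next 3 alternatives were chosen after seeing the data. Without Lgr5 tumors 6, 7 and 8, hormone-sensing was -0.71, milk 3.14, brown fat -0.55, fatty acid synthesis -1.19, T cell -0.51, glycolysis 0.69, respiratory chain -0.29, PI3-kinase -0.79 and melanocyte -0.06, and Elovl3 (0.12) and Cox7a1 (0.30) reversed. Without Lgr5 tumors 2, 7 and 8, luminal keratins were 1.62, hormone-sensing -0.78, B cell -0.03 and Wnt 0.60, and the T cell list (0.01), Ccr7 (0.19), Fcer2a (0.04) and Cxcl13 (0.55) reversed. Without Lgr5 gland 3, K8 gland 2 and Lgr5 tumor 10, adipocyte was -4.49, fatty acid synthesis -2.23, endothelial -1.64, Wnt 0.55 and hair follicle 0.51. Of all values for lists, 732 stayed within the spread.

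The gland comparison called 0 genes in every setting but one. With the replicate number as a block it called 0 genes (776 at an unadjusted p under 0.05), which says nothing on pairing. Leaving out 1 gland gave 0 to 5 genes called. Unadjusted counts ran from 319, with all 25 arrays in the fit, to 968, without Lgr5 gland 1. The steps before the deposited table could not be varied, a low value on these arrays is not an absence, and in the gland comparison line and strain background cannot be told apart.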

Other observations

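Among 11799 probe sets without a listed gene, 73 were apart and higher in the squamous-high arrays (0.619%) and 91 lower (0.771%). Of the 1082 genes apart and higher, 232 had a median in the other tumors beyond both set medians, as had 258 of the 1153 genes apart and lower. Car12, a carbonic anhydrase among the 20 highest differences, was at 10.13 to 11.92 in the squamous-high arrays, 5.96 to 6.35 in the fat-rich arrays and 10.57 to 11.71 in the other tumors.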
